A study of Mus musculus with 8 samples.

Results

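Fabp4, Fabp5, Pparg, Rxra and Lpl are 5 genes of fatty acid handling and of the nuclear receptor PPAR gamma that were taken by name from the table of deposited values. Of these, 4 had a row among the 11756 genes listed, and all 4 passed the filter on low values. Pparg was not analysed here. The libraries were made from polyadenylated RNA of CD11c positive cells that had been sorted out of the marrow of leg bones of C57BL/6 mice. In 4 libraries the cells had been loaded with acetylated low density lipoprotein (acLDL) for 24 h from day 6 of culture, and 4 control libraries came from cells without it. AcLDL is a chemically modified lipoprotein that scavenger receptors bring into the cell, and the series' design text uses it to imitate the surroundings of an atherosclerotic plaque. Animals, sex, age and the growth factors of the culture are not stated in the labels, and nothing there says whether replicates stand for separate cultures. The p-values below therefore measure the spread between libraries, which may be technical.

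Fatty acids are poorly soluble in water, and small cytosolic carriers, the fatty acid binding proteins, move them between membranes, enzymes and the nucleus. PPAR gamma is a nuclear receptor that binds fatty acids and their oxidized forms, pairs with the retinoid X receptor that Rxra encodes, and turns on genes of lipid uptake, storage and oxidation. Fabp4 and Lpl are classical targets of this pair in adipocytes and macrophages, and lipoprotein lipase, the enzyme that Lpl encodes, frees fatty acids from the triglycerides of lipoproteins. In macrophages of arterial plaques, Fabp4 and Fabp5 have been studied as links between lipid load and inflammation.

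The deposited values are a normalized signal with library totals between 3917430 and 4385050, and 10091 genes were tested. The depth in reads behind these values is unknown. Genes whose longest annotated transcript is shorter than 1000 nt differed widely between libraries. An index of 604 such genes (the mean log2 deviation from each gene's mean) was 0.80, -1.04, -1.67 and -0.25 in acLDL libraries 1 to 4, and 0.09, 0.68, 0.82 and 0.57 in control libraries 1 to 4. These genes had a median log2 fold change of -1.23, against -0.13 for all tested genes. The sorting marker CD11c is encoded by Itgax, whose signal was 189, 10.004, 0 and 42.7 in acLDL libraries 1 to 4, against 81.5, 182, 195 and 172 in control libraries 1 to 4. All 10 macrophage markers looked for were measured, with summed signals of 8749 to 12487 with acLDL and 7959 to 9446 in controls. Adgre1, Cd14, Cd68, C1qa and C1qc of that list were at 0 in acLDL library 3, while Csf1r, which gave the largest part of the sum there, Fcgr1 and Mertk measured 9634, 1578 and 1056 in that library and had positive log2 fold changes (0.65, 0.69 and 0.45). The median log2 fold change of the list was -1.85, or 0.08 with the index as a covariate. All 10 markers of conventional dendritic cells were measured too, with sums of 32027 to 44938 with acLDL and 25569 to 29832 in controls, most of it from the single gene H2-Eb1, and their median over 9 tested genes was -1.86, or 0.13 with the index. Summed granulocyte markers (8 of 9 measured) ranged over 8402 to 18065 with acLDL, against 11382 to 20272 in controls. Mmp8 gave most of that sum in acLDL libraries 2 and 3, at 7483 and 9125. The median log2 fold change of this list was -1.77, or -0.03 with the index, with 6 differences negative and 2 positive. Endothelial markers (2 of 8 measured) summed to 201 to 828 with acLDL, against 421 to 4941 in controls, most of it from the single gene Pecam1. Pecam1 measured 797, 154, 367 and 402 in acLDL libraries 1 to 4, against 390, 4908, 2215 and 1997 in control libraries 1 to 4. The other gene, Kdr, averaged 31.1 ± 15.6 with acLDL and 31.4 ± 15.2 in controls. Cdh5, Tek, Gpihbp1, Emcn, Esam and Cldn5 of that list were not among the genes measured here. The difference in the sums is thus that of Pecam1 and not of the list. Lymphocyte markers (2 of 7) summed to 29.4 to 76.8 with acLDL, against 16.6 to 31.4 in controls. None of 8 adipocyte markers was among the genes measured here. The part that these differences between libraries had in the results below was not tested. In bulk RNA, fewer cells of a type and less RNA per cell cannot be told apart.

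Fabp4 encodes the binding protein of adipocytes and lipid-laden macrophages, also called aP2 (chromosome 3, 10204088 to 10208576, minus strand, GRCm38). Its signal was 1243, 408, 532 and 824 in acLDL libraries 1 to 4, against 1505, 1615, 1667 and 1478 in control libraries 1 to 4. Every acLDL library lay below every control, library 1 closest to them and library 2 farthest, and the lowest control exceeded the highest acLDL library by a factor of 1.19. The mean was 752 ± 371 with acLDL and 1566 ± 89.4 in controls (SD, n = 4 each). The spread was uneven, with a coefficient of variation of 49.4% with acLDL and 5.71% in controls. On the scale of log2(signal + 5), the fold change of acLDL over control was -1.18 (SE 0.32, 95% interval -1.91 to -0.45), or 0.441 as a ratio. In limma's fit over all tested genes the unadjusted p was 0.0053 and the adjusted p = 0.298. A two-sided exact permutation test of the same difference gave p = 0.0286, the smallest that 70 assignments allow.

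The size of the Fabp4 difference moved with the libraries and with the short-transcript index. The longest coding transcript of Fabp4 has 896 nt, but its longest annotated transcript of any kind has 4231 nt, so by the rule of the index Fabp4 is not a short gene. Its signal was lowest in acLDL libraries 2 and 3, where the index was also lowest. With the index as a covariate the log2 fold change was -0.58 (SE 0.23, limma's unadjusted p = 0.0322, adjusted p = 0.999). Since the index goes with the groups, this value is not a corrected size. Without acLDL libraries 2 and 3 it was -0.63 (SE 0.23, limma's adjusted p = 0.994). Without acLDL library 1 it was -1.46, and Fabp4 then passed limma's threshold (adjusted p = 0.0224), as did 2190 genes in all. Weighting the libraries by their fit to the model gave -1.21 (adjusted p = 0.0308), with 1957 genes past the threshold.

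**Figure D1:**
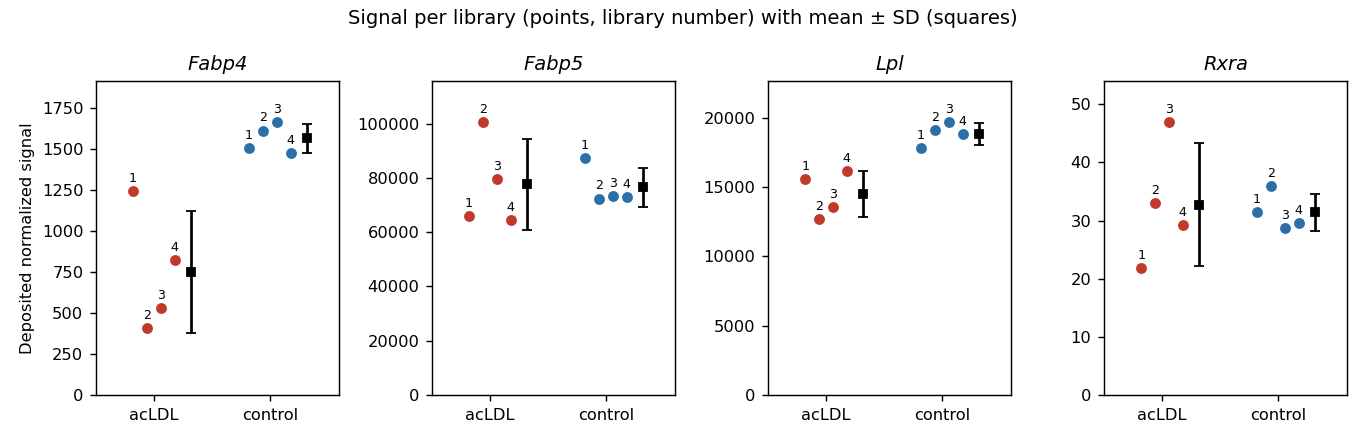
Deposited normalized signal (vertical axes, linear, from 0) of Fabp4, Fabp5, Lpl and Rxra in 4 acLDL and 4 control libraries. Points are libraries with their number, and squares with bars are means ± SD; the groups separate for Fabp4 and Lpl (highest acLDL values 1243 and 16158, lowest control values 1478 and 17806) and overlap for Fabp5 and Rxra.

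Lpl, which encodes lipoprotein lipase, had the same order of groups at a smaller size (chromosome 8, 68880491 to 68907448, plus strand, GRCm38). Its signal was 15609, 12702, 13583 and 16158 in acLDL libraries 1 to 4, against 17806, 19096, 19703 and 18860 in control libraries 1 to 4. The groups did not overlap, acLDL libraries 2 and 3 were lowest, and acLDL library 4 came within a factor of 1.10 of control library 1. Means were 14513 ± 1638 with acLDL and 18866 ± 791 in controls (SD, n = 4 each). The log2 fold change was -0.38 (SE 0.14, 95% interval -0.71 to -0.06), a ratio of 0.766, with limma's unadjusted p = 0.024 and adjusted p = 0.298. The exact two-sided permutation test again gave its smallest possible p of 0.0286.

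The longest transcript of Lpl, which is also its longest coding one, has 4115 nt. The Lpl log2 fold change was -0.25 with the short-transcript index as a covariate (limma's unadjusted p = 0.0618, adjusted p = 0.999). It was also -0.25 without acLDL libraries 2 and 3 (unadjusted p = 0.183, adjusted p = 0.994). Leaving out each library in turn gave unadjusted p-values of 0.0116 to 0.0691 in limma. Without acLDL library 1 the log2 fold change was -0.42, at an adjusted p of 0.0517 in limma. Lpl took 0.377%, 0.30%, 0.31% and 0.412% of the library total in acLDL libraries 1 to 4, and 0.429%, 0.449%, 0.472% and 0.474% in control libraries 1 to 4. Every acLDL share lay below every control share.

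Fabp5 encodes the epidermal-type binding protein, which macrophages also make, and it lies near Fabp4 (chromosome 3, 10012548 to 10016607, plus strand, GRCm38). Its signal was 65891, 100585, 79400 and 64421 in acLDL libraries 1 to 4, against 87359, 72378, 73339 and 73003 in control libraries 1 to 4. The groups overlapped: acLDL library 2 was highest of all 8 and acLDL library 4 lowest, and control library 1 stood above the other 3 controls. Means were 77574 ± 16756 with acLDL and 76520 ± 7237 in controls (SD, n = 4 each). The log2 fold change was 0.0005 (SE 0.18, limma's adjusted p = 0.998), and its 95% interval of -0.40 to 0.40 covers ratios of 0.760 to 1.32. With the short-transcript index as a covariate it was -0.21 (adjusted p = 0.999). Changes of these sizes are not excluded by these libraries. The interval is no limit of detection, since no tested gene passed limma's threshold as reported, whatever its size.

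Fabp5 was abundant in both groups, at 1.59% to 2.38% of the library total with acLDL and 1.70% to 2.10% in controls. Its longest coding transcript has 987 nt, and its longest annotated transcript of any kind has 3238 nt. The level of Fabp5 carries an uncertainty that the other members have less of. Of the 957 runs of 31 nt in its coding transcript, 317 (33.1%) also occur in transcripts of 5 other genes, 260 of them in Gm6166. Pseudoalignment with kallisto divides reads between such copies. The same count was 0 for Fabp4 and for Rxra, and 89 of 3933 (2.26%) for Lpl. These counts cover whole transcripts, whereas the library kit reads only an end of the message, and the share at that end was not counted.

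Rxra, the partner of PPAR gamma and of several other nuclear receptors, had a low signal, under 50 in every library (chromosome 2, 27676440 to 27762957, plus strand, GRCm38). Its signal was 21.8, 33.0, 47.0 and 29.2 in acLDL libraries 1 to 4, against 31.4, 35.9, 28.7 and 29.7 in control libraries 1 to 4. Both the lowest and the highest value belonged to acLDL libraries, and the controls lay between them. Means were 32.7 ± 10.6 with acLDL and 31.4 ± 3.21 in controls (SD, n = 4 each). The log2 fold change was 0.01 (SE 0.33, limma's adjusted p = 0.979), with a 95% interval of -0.73 to 0.76. Ratios from 0.603 to 1.69 lie within that interval, and the coefficient of variation was 32.2% with acLDL and 10.2% in controls. With the short-transcript index as a covariate the log2 fold change was -0.35 (adjusted p = 0.999), and after quantile normalization it was 0.39 (adjusted p = 0.590).

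After adjustment over all tested genes, 0 of 4 members passed limma's threshold, against 0% of tested genes. At an unadjusted p under 0.05 in limma there were 2 members, Fabp4 and Lpl, both lower with acLDL, where 8.93% of tested genes were lower, 7.42% higher and 16.4% one or the other at that p. The same 2 members had no overlap between the groups, against 2.20% of tested genes with every acLDL library lower, 3.44% with every one higher and 5.64% in either direction. The members had been chosen with earlier results of these data known, so these shares are a description. The median log2 fold change over all tested genes was -0.13 as deposited and 0.13 after quantile normalization. Relative to that median, Fabp4 was at -1.05 as deposited and -1.33 after quantile normalization, and Lpl at -0.26 and -0.65. Fabp5 was at 0.13 and -0.0018, and Rxra at 0.14 and 0.26.

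**Figure D2:**
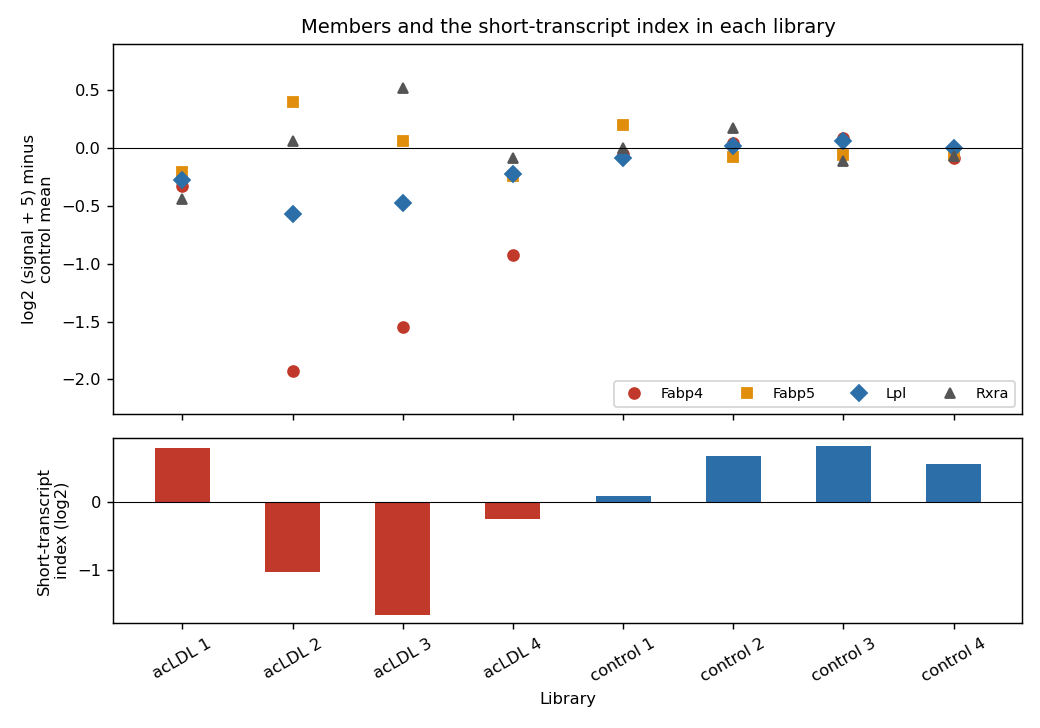
Upper panel, log2(signal + 5) of each member minus its control mean, for each of the 8 libraries; lower panel, the short-transcript index of the same library (log2 units). Fabp4 and Lpl lie below 0 in all 4 acLDL libraries and are lowest in acLDL libraries 2 (-1.93 and -0.57) and 3 (-1.55 and -0.47), where the index is -1.04 and -1.67, while Fabp5 (0.40 and 0.06) and Rxra (0.06 and 0.52) are above 0 there.

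Across the 8 libraries Fabp4 and Lpl had the highest correlation of any pair of members. They had a Pearson r of 0.95 on the log2 scale, although Fabp4 spanned a wider range. Fabp5 had r = -0.49 with Fabp4 and -0.47 with Lpl, and Rxra had -0.45 and -0.30. The difference between the groups was not removed from these 8 points. Fabp4 and Lpl were both lower with acLDL without overlap, which enters their r. The points also share the library effects given above: r with the short-transcript index was 0.90 for Fabp4, 0.83 for Lpl, -0.53 for Fabp5 and -0.72 for Rxra. Within a library, the signal of Fabp5 was 53.0, 247, 149 and 78.2 times that of Fabp4 in acLDL libraries 1 to 4, against 58.0, 44.8, 44.0 and 49.4 times in control libraries 1 to 4. The ratio in acLDL library 1 lay inside the range of the controls, and in the other acLDL libraries it lay above. The ratio of Lpl to Fabp4 was 12.55, 31.16, 25.51 and 19.61 in acLDL libraries 1 to 4, and 11.83, 11.83, 11.82 and 12.76 in control libraries 1 to 4, again with acLDL library 1 inside the control range. Both ratios are scale-free within a library and are compared only between libraries, since they are not corrected for transcript length.

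The genes whose log2 signal followed each member most closely were sought among 4187 tested genes with a mean signal of at least 100. Closest to Fabp4 was Ccr2, the chemokine receptor that guides monocytes out of the marrow and into tissue, with r = 0.995 over 8 libraries. Ccr2 measured 1639, 738, 796 and 1180.5 in acLDL libraries 1 to 4, against 1849, 2100, 2044 and 1941 in control libraries 1 to 4, an order much like that of Fabp4. Sla, a Src-like adaptor (r = 0.980), and Son, a splicing cofactor (0.976), came next, and 243 genes in all had an r above 0.9. For Lpl the closest were Ctbs, a lysosomal glycosidase (0.968), Ccr2 (0.952) and Fabp4 (0.951), and 30 genes were above 0.9. Fabp5 had far fewer close genes, 4 above 0.9, led by the sterol-binding protein gene Osbpl9 (0.945), galectin 3, Lgals3 (0.939), and the carrier gene Slc25a45 (0.936). Lgals3 averaged 56284 ± 16592 with acLDL and 53073 ± 8789 in controls (SD, n = 4 each), with its highest signal, like that of Fabp5, in acLDL library 2. For Rxra the closest were Gm4673 (0.956), Nexn (0.941) and Nsd3 (0.934). All these r values and counts hold the library effects given above, and also the difference between the groups, which was not removed. Fabp4 and Lpl, with the most close genes, also had the highest r with the short-transcript index (0.90 and 0.83). Rxra, with 8 genes above 0.9, had an r of -0.72 with the index. Why the members differed in their number of close genes was not tested.

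The other genes around the members came from 5 lists, of which 73 genes were measured and 70 tested. None passed limma's threshold over all tested genes. At an unadjusted p under 0.05 there were 5 higher and 6 lower, and the groups did not overlap for 2, both higher, Pnpla2 and Tbl1xr1. Tbl1xr1, a corepressor subunit gene named after its values were seen, averaged 118 ± 22.1 with acLDL, against 81.2 ± 12.2 in controls. Over all tested genes the shares at that p were 7.42% higher and 8.93% lower, and 3.44% had no overlap with every acLDL library higher. Nothing particular to the lists is read from these counts. The median log2 fold change of the 70 genes was -0.02. In the family of small lipid carriers, Fabp3, the heart-type protein, was the one gene measured of 13 looked for beside Fabp4 and Fabp5. It was close to the floor at 11.9 ± 5.01 with acLDL and 5.58 ± 6.45 in controls (SD, n = 4 each).

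Receptors and cofactors that work with PPAR gamma and RXR were spread to both sides of 0. Among 19 tested genes 11 differences were positive and 8 negative (median log2 fold change 0.17, and -0.06 with the short-transcript index). Ppard, the PPAR delta receptor, had a mean signal of 31.4 ± 11.6 with acLDL, against 11.9 ± 6.58 in controls. Its log2 fold change was 1.12 (limma's adjusted p = 0.298), and 0.81 with the index. Ncoa1, a coactivator, averaged 27.8 ± 12.6 with acLDL, against 88.4 ± 53.7 in controls. Cebpb, a factor that precedes Pparg in fat cell formation, had 102 ± 171 with acLDL, against 476 ± 322 in controls. Its log2 fold change was -2.95, and -0.59 with the index. The corepressor gene Ncor1 had the highest mean of the list, at 826 ± 229 with acLDL, against 727 ± 192 in controls, followed by the coactivator gene Crebbp at 437 ± 127 with acLDL, against 718 ± 385 in controls.

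Other targets of PPAR gamma were spread to both sides. Among 24 tested genes 10 differences were positive and 14 negative (median -0.09, and -0.03 with the index). Cd36, the fatty acid translocase and scavenger receptor, is a target in macrophages as Fabp4 is. Its mean signal was 4457 ± 427 with acLDL, against 4608 ± 322 in controls (SD, n = 4 each). On the log2 scale the difference was -0.050 (limma's adjusted p = 0.849). The 3 targets with the smallest p all had a higher mean. Pnpla2, the lipase that opens stored triglyceride, had 781 ± 201 with acLDL, against 467 ± 101 in controls, and its groups did not overlap (log2 fold change 0.73, and 0.52 with the index). Plin2, which coats lipid droplets, had 709 ± 209 with acLDL, against 410 ± 66.5 in controls (log2 fold change 0.75, and 0.32 with the index). Acadl, which begins mitochondrial oxidation of long acyl chains, had 919 ± 249 with acLDL, against 580 ± 107 in controls (log2 fold change 0.64, and 0.59 with the index). Each of these 3 had an adjusted p = 0.298 in limma. At an unadjusted p under 0.05 in limma, 3 targets were higher and 1 lower. The lower one, Abcg1, was named after its values were seen. It averaged 282 ± 252 with acLDL, against 589 ± 96.3 in controls (log2 fold change -1.44, and -0.25 with the index). Over all tested genes the shares at that p were 7.42% higher and 8.93% lower. Ucp2, a mitochondrial carrier, averaged 1476 ± 214 with acLDL, against 1514 ± 344 in controls.

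Genes that govern lipoprotein lipase were tested for 12 of 24 looked for, with 5 positive and 7 negative differences (median -0.03, and -0.13 with the index). Lmf1, the chaperone that matures the lipase in the endoplasmic reticulum, averaged 49.7 ± 34.6 with acLDL and 87.7 ± 31.3 in controls (SD, n = 4 each). Its partner Sel1l averaged 648 ± 216 with acLDL, against 389 ± 63.8 in controls, and Furin, a protease that cleaves the lipase, averaged 2041 ± 954 with acLDL, against 1242 ± 223 in controls. The log2 fold changes were -0.87 for Lmf1, 0.67 for Sel1l and 0.61 for Furin, and with the short-transcript index they were -0.29, 0.11 and -0.075. Apoe, the apolipoprotein that macrophages secrete, averaged 5211 ± 944 with acLDL, against 5230 ± 699 in controls. None of these 4 had an unadjusted p under 0.05 in limma. Of 16 tested genes that take up and activate fatty acids, 6 differences were positive and 10 negative (median -0.18, and -0.05 with the index). Gpat4, which starts glycerolipid synthesis, had a mean signal of 154 ± 57.5 with acLDL, against 68.4 ± 20.96 in controls. Its log2 fold change was 1.08 (limma's adjusted p = 0.298), and 0.51 with the index. Dbi, which binds acyl-CoA, had 292 ± 356 with acLDL, against 837 ± 321 in controls, with a log2 fold change of -2.39 (-0.34 with the index). Slc27a3, a fatty acid transport protein gene, averaged 8.38 ± 11.4 with acLDL, against 28.4 ± 7.56 in controls. It was close to the floor, at 0 in acLDL libraries 2 and 3. Acbd3, another acyl-CoA binding family gene, averaged 1046 ± 299 with acLDL, against 753 ± 170 in controls.

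**Figure D3:**
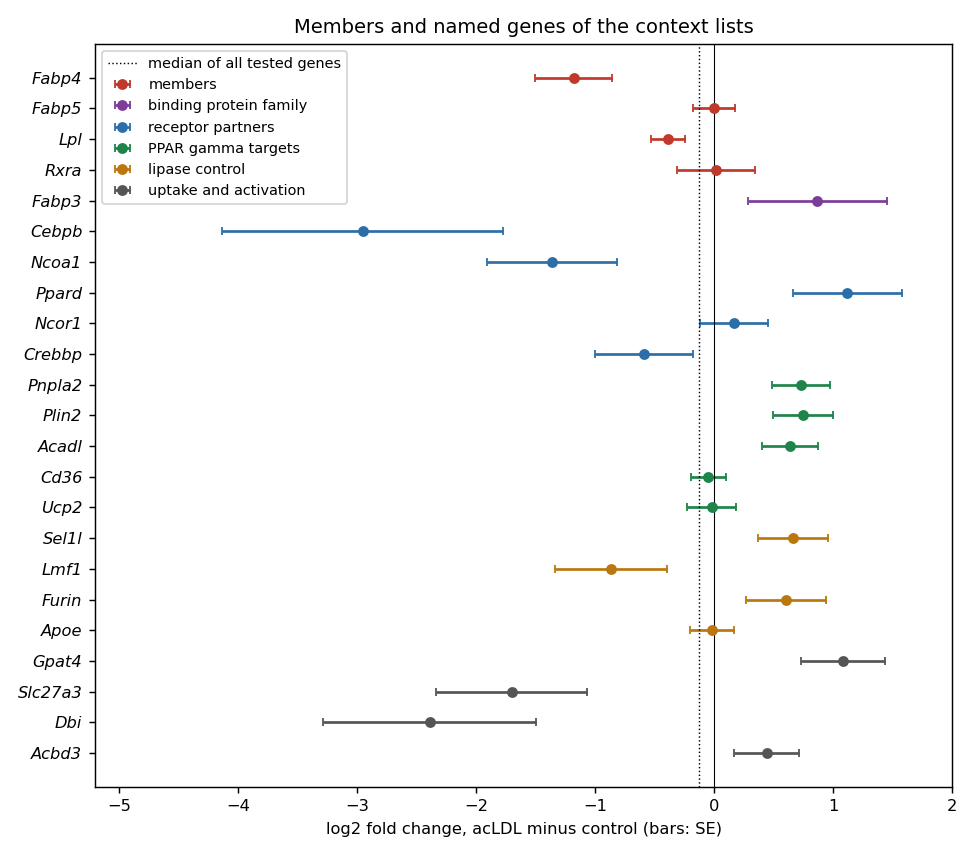
Log2 fold change of acLDL minus control (horizontal axis, bars are SE from limma) for the 4 members and for the genes taken by rule from 5 lists, coloured by list; the dotted line is the median of all tested genes, -0.13. Fabp4 (-1.18) and Lpl (-0.38) lie left of it, while Pnpla2 (0.73), Plin2 (0.75) and Acadl (0.64) lie right and Cd36 (-0.05) lies close to 0.

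The plot of alternatives shows each member under other ways of handling the values. Fabp4 had a negative log2 fold change in all 18 alternatives, from -1.46 without acLDL library 1 to -0.58 with the short-transcript index. Lpl was negative in all 18 as well, from -0.53 after quantile normalization to -0.25. Fabp5 changed sign in 9 of 18 and Rxra in 7 of 17, with values between -0.23 and 0.12 for Fabp5 and between -0.35 and 0.39 for Rxra.

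**Figure D4:**
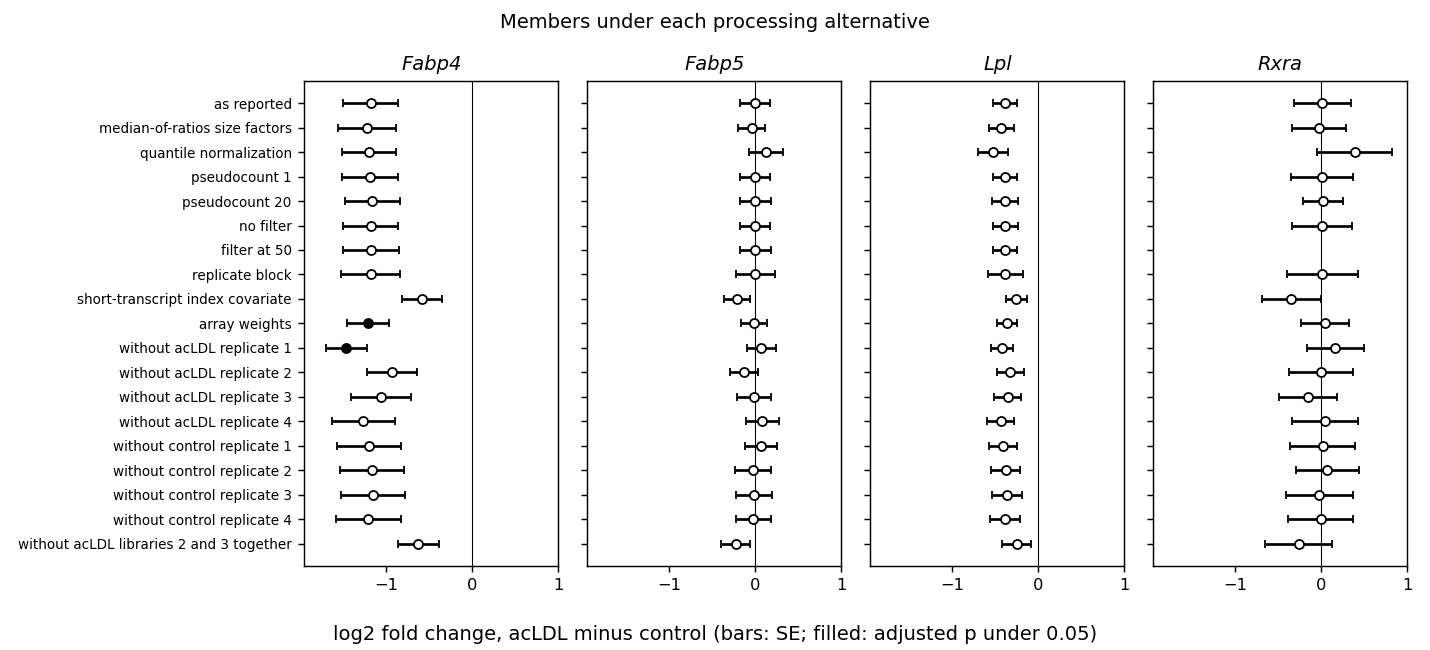
Log2 fold change of acLDL minus control (horizontal axes, bars are SE) for each member under the reported setting and each alternative (rows); filled points have an adjusted p under 0.05. Only 2 points are filled, both of Fabp4 (array weights and without acLDL replicate 1), and every point of Fabp4 and Lpl lies left of 0.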

How the data were processed

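RNA of 8 libraries was prepared with the Lexogen QuantSeq V2 kit, which reads message 3' ends, per the labels' protocols. The series' design text says 5' instead, and which end was read was not settled here. The submitters' processing notes name bcl2fastq (version 2.20), kallisto and mm10 (GRCm38). For kallisto's version, the annotation and the normalization, "not given in the sources used here" applies. The authors deposited 1 normalized signal per gene and library. It is named as raw counts, yet most values are fractional, no gene has a total under 40.0, and above 0 nothing is under 5. At a tolerance of 0.01 steps, 11.3% to 13.5% of values below 60 lie on a step, against 2.0% by chance, so reads were not recovered, and no counting interval was computed.

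Genes with a signal of at least 10 in at least 4 libraries were tested with limma 3.58.1 (R 4.3.3) on log2(signal + 5), with a variance trend, robust moderation and Benjamini-Hochberg adjustment over all tested genes at 0.05. Fold changes on this scale understate those of low genes. The fit was tested on simulated data, whose noise was independent between libraries and no wider than that of the median gene. The library effects given above were not simulated. Single members were also compared by exact permutation. Tables and figures used Python 3.11.15. Transcript lengths, coordinates and shared runs of 31 nt came from GENCODE mouse release 21, which matched 96.6% of symbols. The short-transcript index leaves out the members.

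The members and lists were chosen with earlier results of these data known. Named genes are the members, from each of 5 lists the 3 genes with the smallest p and the 2 with the highest mean, and for each member the 3 genes with the highest r. Alternatives were other scalings, pseudocounts (1, 20) and filters (none, 50), a replicate block, the index, array weights and left-out libraries. Permutation tests without each library, the named genes and the r values were added later.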

Additional observations from a re-analysis of the deposited data

Results flagged for a closer look

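Among the 33 genes named by rule, 66 groups of 4 libraries were examined for a single library far from the other 3, and 5 stood out, where chance gives about 1 in 20. Fabp5 measured 87359 in control library 1, while the other controls lay between 72378 and 73339. Osbpl9 measured 450 in the same library, against 267 to 279 in the other controls, but it was named because its values follow those of Fabp5 and is no separate sign. Nexn, one of the genes closest to Rxra, measured 146 in control library 2, against 70.8 to 79.8. Cebpb measured 359 in acLDL library 1, against 10.1 to 28.7 in the other acLDL libraries. Pnpla2 measured 1079 in acLDL library 2, against 648 to 721 in the other acLDL libraries.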

How the results depend on the processing

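Fabp4 and Lpl kept a negative log2 fold change in all 18 alternatives run. Fabp4 passed the threshold in 2 of them, at -1.21 with array weights and -1.46 without acLDL library 1, and Lpl in none. Leaving out each library in turn gave -1.46 to -0.93 for Fabp4, -0.44 to -0.32 for Lpl, -0.13 to 0.082 for Fabp5 and -0.15 to 0.17 for Rxra. The exact permutation p for Fabp4 was 0.0571 when any control was left out and 0.0286 otherwise, and for Lpl 0.0571 without control library 3 and 0.0286 otherwise. With 3 against 4 libraries, 0.0286 is the smallest p possible. Fabp5 turned negative with median-of-ratios size factors (-0.043), the short-transcript index (-0.21), array weights (-0.016) and without acLDL libraries 2 and 3 (-0.23). Rxra turned negative with size factors (-0.023), the index (-0.35) and without those 2 libraries (-0.26), and had no value with the filter at 50. The cause of these turns was not tested. The number of genes past the threshold was 0 as reported, 1 after quantile normalization, 1957 with array weights and 0 to 2190 when each library was left out. Among genes named from the lists, the sign turned with the index for Acbd3 (-0.043), Cd36 (0.052), Furin (-0.075) and Ncor1 (-0.25). Without acLDL libraries 2 and 3 it turned for Cd36 (0.056) and Ncor1 (-0.0090), and with array weights for Apoe (0.034) and Ucp2 (0.082). Leaving out single libraries gave -0.098 to 0.083 for Apoe and -0.13 to 0.12 for Ucp2. With the replicate block no gene passed. Fabp4 then had -1.18 (limma's unadjusted p = 0.0155, adjusted p = 0.483) and Lpl -0.38 (unadjusted p = 0.109, adjusted p = 0.483). Same-numbered libraries had correlations of their deviations of -0.55, -0.21, -0.28 and 0.03. The library effects given above enter these correlations, so they cannot decide whether the numbers pair the libraries.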
